A study of Arabidopsis thaliana with 6 samples.

Results

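The early transcriptional output of auxin signalling was read in Arabidopsis seedlings from 35 genes, chosen by gene ID as members of 2 families. They were the 29 Aux/IAA genes, IAA1 to IAA20 and IAA26 to IAA34, and 6 GH3 genes, GH3.1, GH3.2, GH3.3, GH3.5, GH3.6 and GH3.17. All 35 were among the 34262 features of the deposited table. The 3 genotypes, all in the Col-0 ecotype, had 2 poly(A) RNA-seq libraries each: wild-type Col-0, the lhp1-3 mutant of the chromatin gene LHP1, and importin123, which the series names as a triple mutant of importin α genes. Whole seedlings grew on MS medium with 0.8% sucrose, in long days (16 h light, 8 h dark), and were harvested at ZT12. No hormone treatment is named in the labels, and neither seedling age nor the sowing of each library is stated there, so that every p-value measures the spread between these libraries only, which may be technical.

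Aux/IAA proteins are short-lived repressors of auxin transcription. They bind auxin response factors (ARFs) on DNA and recruit TOPLESS corepressors through an LxLxL motif, in which L is leucine and x any residue. Auxin joins their degron, a short stretch around a glycine-tryptophan-proline-proline core, to the F-box receptors TIR1 and AFB1 to AFB5, whose SCF ubiquitin ligase marks the repressor for destruction. Many Aux/IAA genes are themselves switched on by the ARFs they restrain, and GH3 genes are classical early targets too: the group of enzymes analysed here joins indole-3-acetic acid to amino acids, which lowers free auxin. LHP1 is a chromodomain protein that binds the histone mark set by Polycomb complexes, and importin α proteins are adaptors that carry cargo with a nuclear localisation signal into the nucleus.

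The degron separates the family into canonical and non-canonical members. The core was found in the encoded protein of 23 of the 29 Aux/IAA genes, and it was absent from 6, namely IAA20 and IAA30 to IAA34. An LxLxL motif was found in 28 of 29, IAA33 being the exception. The longest encoded Aux/IAA proteins had 129 to 338 residues and the GH3 proteins 590 to 612 residues, none of the latter with the core. The coding strand around the degron core is printed 5′ to 3′ for 6 canonical members called in at least 1 comparison below. IAA12 and IAA13 were called too and are not printed, so the runs do not show how far all called members share this site. Each run has 39 bases and lies in 1 exon, the 12 capitals are the 4 codons of the core, and the sequence is that of RefSeq assembly TAIR10.1.
IAA1: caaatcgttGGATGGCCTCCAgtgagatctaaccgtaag
IAA7: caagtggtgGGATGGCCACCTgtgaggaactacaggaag
IAA8: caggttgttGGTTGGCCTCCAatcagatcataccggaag
IAA16: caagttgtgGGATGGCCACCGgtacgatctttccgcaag
IAA17: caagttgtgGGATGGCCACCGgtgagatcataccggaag
IAA18: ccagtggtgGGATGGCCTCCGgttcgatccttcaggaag

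ARFs bind the auxin response element, whose classical form is TGTCTC and whose high-affinity form is TGTCGG. Both were searched on both strands in the 250 bases before the annotated start of each gene. They share their first 4 letters, and no position can match both on one strand. TGTCTC was present upstream of 9 of 29 Aux/IAA genes (31.0%) and 3 of 6 GH3 genes (50%), against 10.9% of 27443 protein-coding genes. TGTCGG was present upstream of 6 of 29 Aux/IAA genes (20.7%) and 0 of 6 GH3 genes, against 4.16% of the 27443. Either motif was present for 13 of 29 (44.8%) and 3 of 6 (50%), against 14.7%. In 1000 bases the shares with either motif were 72.4% and 66.7%, against 48.3%. The windows of 3 genes are printed 5′ to 3′ in the direction of transcription, with matches to either motif, on either strand, in capitals, for a gene that rose and 2 genes that fell in importin123: IAA1 on the plus strand at chr4:8360746-8360995 with 1 match to each motif, IAA16 on the minus strand at chr3:1290892-1291141 with 1 TGTCGG match, and GH3.5 on the plus strand at chr4:13653329-13653578 with 1 TGTCTC match (TAIR10.1).
IAA1: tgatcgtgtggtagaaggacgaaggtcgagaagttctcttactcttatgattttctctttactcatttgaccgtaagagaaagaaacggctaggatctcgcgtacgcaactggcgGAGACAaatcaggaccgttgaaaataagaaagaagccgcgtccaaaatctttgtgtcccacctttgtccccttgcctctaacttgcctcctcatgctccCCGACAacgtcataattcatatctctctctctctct
IAA16: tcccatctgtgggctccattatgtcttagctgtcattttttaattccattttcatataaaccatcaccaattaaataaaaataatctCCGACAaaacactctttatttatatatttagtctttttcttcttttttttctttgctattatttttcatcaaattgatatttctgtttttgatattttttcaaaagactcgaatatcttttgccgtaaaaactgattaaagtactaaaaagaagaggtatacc
GH3.5: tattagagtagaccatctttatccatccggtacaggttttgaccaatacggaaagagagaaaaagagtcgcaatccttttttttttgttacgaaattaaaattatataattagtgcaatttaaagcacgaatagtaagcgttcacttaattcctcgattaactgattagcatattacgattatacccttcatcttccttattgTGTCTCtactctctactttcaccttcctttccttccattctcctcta
The windows of IAA7, IAA17, IAA18 and GH3.6 held neither motif. Of the 11 members called in any comparison after the correction described next, 7 had a match. This stands against 13 of all 29 Aux/IAA genes, 3 of all 6 GH3 genes and 14.7% of protein-coding genes. Whether called members differed from uncalled members in this was not tested. A match is a description of the letters, not evidence of binding.

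The libraries held 70137936 to 95101867 counts. In the mutants even silent genes held reads. RPKM is the read count per kb of gene span, scaled to the library total, and its median over the 2306 lowest protein-coding nuclear genes was 0.206 and 0.248 for Col-0, 1.53 and 1.44 for lhp1-3, and 1.79 and 1.32 for importin123. This background is called the floor. It made up 1.44% to 1.74% of nuclear counts in Col-0, 11.6% to 12.4% in lhp1-3 and 10.5% to 15.3% in importin123, and chloroplast features took 2.95% to 3.27%, 14.5% to 14.9% and 13.7% to 18.7%. Members were therefore tested with edgeR's quasi-likelihood test both on counts as deposited and after subtracting the floor of each library, with a Benjamini-Hochberg adjusted p under 0.05 over all features as the call; the cause of the floor was not tested. Each targeted gene was lower in its own mutant: LHP1 stood at 5.46 and 5.11 RPKM in Col-0, 3.87 and 3.21 for lhp1-3, and 5.77 and 6.13 for importin123, and IMPA1, IMPA2 and IMPA3 at 2.03 to 4.16 RPKM in importin123 against 10.4 to 33.2 in Col-0. These importin genes were below Col-0 in lhp1-3 too. IMPA1 stood there at 17.8 and 17.4 RPKM (23.6 and 22.6 in Col-0), IMPA2 at 22.3 and 24.9 (33.2 and 31.2), and IMPA3 at 9.84 and 8.43 (11.2 and 10.4). Seedling markers of leaf (RBCS1A and LHCB1.3) and root (PHT1;1 and EXP7) did not move together: in importin123 RBCS1A and PHT1;1 were lower than in Col-0, while LHCB1.3, at 1343 and 1697 RPKM in Col-0, 708 and 979 for lhp1-3, and 1747 and 2379 for importin123, and EXP7, at 6.24 and 2.11 RPKM in Col-0, 5.45 and 6.21 for lhp1-3, and 9.95 and 8.83 for importin123, were higher. The leaf pair summed to 7576 and 8305 RPKM for Col-0, 4642 and 5857 for lhp1-3, and 4612 and 5937 for importin123, and the root pair to 48.3 and 44.4, 34.7 and 27.5, and 28.0 and 27.9. The 4 floral markers summed to 1.09 and 1.52, 29.2 and 27.7, and 7.54 and 5.41 RPKM; in lhp1-3 SEP3, AP3 and AG stood above the range of silent genes in both libraries and AP1 in 1, and in importin123 none did. The part of these tissues in the members' values was not tested, and fewer cells of a type cannot be told apart from less RNA per cell.

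In Col-0 seedlings, transcripts of canonical Aux/IAA genes spanned a wide range, and 3 genes dominated. IAA16 (AT3G04730) had the highest Col-0 mean, though IAA8 was higher in Col-0 replicate 2 and by the mean over all 6 libraries; IAA16 stood at 76.4 and 67.9 RPKM in Col-0, 56.5 and 54.0 for lhp1-3, and 38.1 and 42.3 for importin123. IAA8 (AT2G22670) stood at 66.5 and 71.0 RPKM in Col-0, 66.8 and 72.0 for lhp1-3, and 43.3 and 47.8 for importin123, and IAA9 (AT5G65670) at 57.7 and 59.9 RPKM in Col-0, 53.8 and 52.8 for lhp1-3, and 55.7 and 58.7 for importin123. IAA16, IAA8 and IAA9 together gave 47.1% and 50.2% of the summed Aux/IAA RPKM in Col-0, 46.4% and 47.1% for lhp1-3, and 39.7% and 41.2% for importin123. The Aux/IAA sum was 426 and 396 RPKM in Col-0, 381 and 379.9 for lhp1-3, and 345 and 361 for importin123. Among GH3 genes, GH3.5, GH3.6 and GH3.17 gave 89.9% and 88.1% of the family's sum in Col-0, 82.9% and 84.6% for lhp1-3, and 77.5% and 81.9% for importin123, out of sums of 60.5 and 66.6, 53.1 and 54.1, and 45.2 and 44.3 RPKM. These sums include the floor. The span-based RPKM counts intron reads, which limits comparisons of level between genes.

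**Figure D1:**
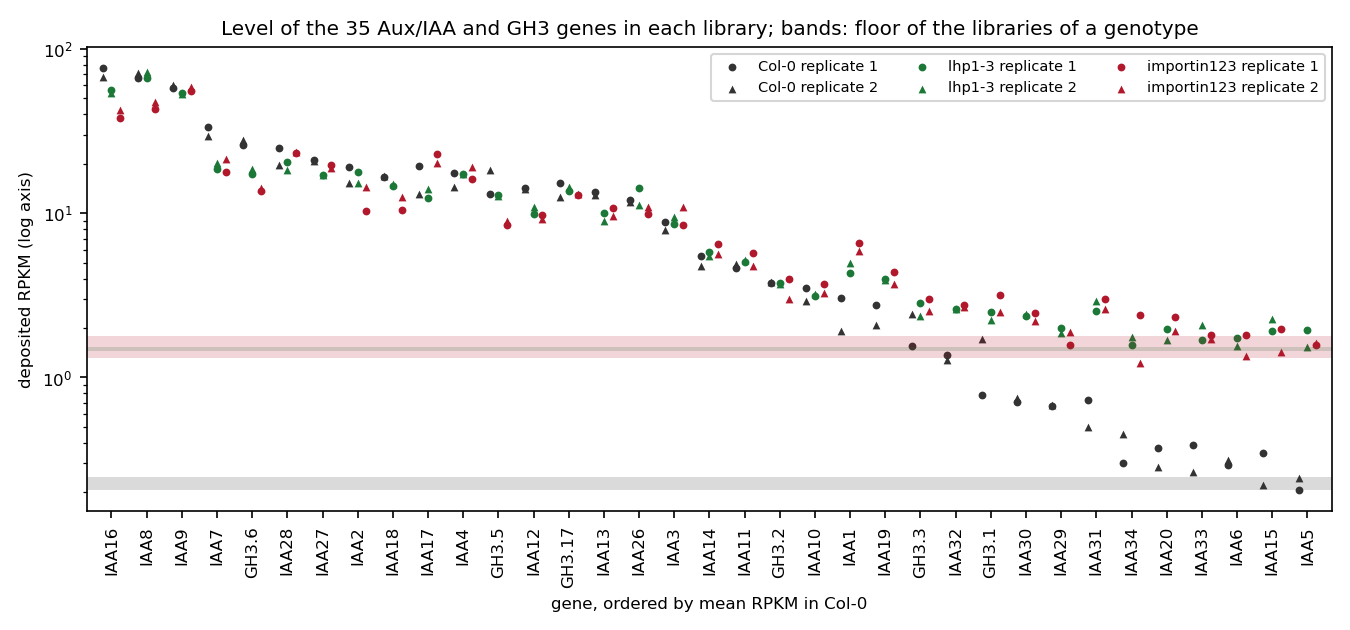
Deposited RPKM (log axis) of each of the 35 genes in each of the 6 libraries, ordered by mean RPKM in Col-0; colour marks the genotype, shape the replicate, and horizontal bands span the floor of the 2 libraries of a genotype. The genes at the right lie on or just above the band of lhp1-3 and importin123.

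Of the 35 genes, 26 stood far enough above the floor to be tested after subtraction: 20 Aux/IAA and all 6 GH3 genes. The 9 that did not were IAA5, IAA6, IAA15, IAA20, IAA29, IAA30, IAA31, IAA33 and IAA34, so 5 of the 6 Aux/IAA genes without a degron core, and 4 of the 23 with one, failed that rule in these seedlings. The 9 genes spanned 0.206 to 0.749 RPKM in Col-0, 1.54 to 2.91 for lhp1-3 and 1.22 to 3.02 for importin123. Relative to the floor these are 0.993 to 3.21 times in Col-0, 1.11 to 1.84 times in lhp1-3 and 1.02 to 1.82 times in importin123. On the counts as deposited all 9 were called higher in each mutant, by 1.07 to 2.49 (log2) in lhp1-3 and 0.84 to 2.28 in importin123. Over all features 41.8% and 42.3% were called higher. The rule picked genes with few reads above the floor, and the floor was higher in both mutants. These calls therefore cannot be told apart from the rise of the floor. The 9 genes have no fold after subtraction, because their reads above the floor, summed over the 6 libraries, were fewer than those of the floor itself.

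The 9 genes differed in how far they stood above background: IAA30 and IAA31 lay above the 95th percentile of silent genes in all 6 libraries, and IAA6 in none. IAA20 lay below that percentile in both Col-0 libraries and in lhp1-3 replicate 2. IAA5, an early auxin-induced gene, stood at 0.206 and 0.246 RPKM in Col-0, 1.96 and 1.54 for lhp1-3, and 1.58 and 1.63 for importin123. IAA29, known as a target of PIF transcription factors in shade, stood at 0.671 and 0.676 RPKM in Col-0, 2.01 and 1.86 for lhp1-3, and 1.57 and 1.90 for importin123. Of IAA20 and IAA30, known as targets of ARF5, IAA20 stood at 0.374 and 0.287 RPKM in Col-0, 1.97 and 1.69 for lhp1-3, and 2.33 and 1.91 for importin123, and IAA30 at 0.712 and 0.749 RPKM in Col-0, 2.36 and 2.45 for lhp1-3, and 2.46 and 2.22 for importin123. In each of these 4 genes both libraries of each mutant lay above both Col-0 libraries as deposited, as the floor did. Above the floor (scaled reads per kb) this order held for IAA20, at 0.189 and 0.0442 in Col-0, 0.603 and 0.348 for lhp1-3, and 0.793 and 0.744 for importin123, and for IAA30, at 0.571 and 0.577 in Col-0, 1.12 and 1.42 for lhp1-3, and 0.982 and 1.14 for importin123, but not for IAA5 or IAA29. IAA31 stood at 0.724 and 0.502 RPKM in Col-0, 2.55 and 2.91 for lhp1-3, and 3.02 and 2.62 for importin123, and above the floor at 0.585 and 0.292 in Col-0, 1.39 and 2.08 for lhp1-3, and 1.79 and 1.65 for importin123, again with every mutant library above Col-0. None of these levels above the floor was tested. The rest were listed at 0.291 and 0.313 RPKM in Col-0, 1.73 and 1.56 for lhp1-3, and 1.82 and 1.36 for importin123 for IAA6, at 0.345 and 0.221 RPKM in Col-0, 1.92 and 2.27 for lhp1-3, and 1.98 and 1.43 for importin123 for IAA15, at 0.388 and 0.268 RPKM in Col-0, 1.69 and 2.09 for lhp1-3, and 1.82 and 1.71 for importin123 for IAA33, and at 0.304 and 0.451 RPKM in Col-0, 1.57 and 1.78 for lhp1-3, and 2.39 and 1.22 for importin123 for IAA34, which shares 156 bp with another gene on its own strand. IAA32, the only gene without a core that could be tested, stood at 1.36 and 1.29 RPKM in Col-0, 2.6 and 2.63 for lhp1-3, and 2.78 and 2.67 for importin123. It overlaps a gene on the opposite strand over 826 bp, and its counts may hold reads of that gene, since strand use is not stated. IAA32 was called higher on deposited counts (0.54 ± 0.18 in lhp1-3 and 0.51 ± 0.18 in importin123). It was called in neither mutant after subtraction (0.32 ± 0.24 and 0.34 ± 0.24, adjusted p = 0.392 and 0.299, edgeR).

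The next comparison asked which genes differed in importin123 seedlings from Col-0. After floor subtraction, 8 of 26 genes were lower and 1 was higher. The genes that fell were the repressor genes IAA16, IAA12, IAA7, IAA18 and IAA8 and the conjugating-enzyme genes GH3.6, GH3.5 and GH3.2, to between 0.548 and 0.762 of their Col-0 level, and IAA1 rose 2.48-fold. Members higher made up 3.85% and members lower 30.8% of those tested, where over all 19699 genes 19.3% were called higher and 21.7% lower, so a fall in importin123 is common among all genes and its frequency is not a result about these families. On deposited counts 11 of 35 were called higher and 19 lower, against 42.3% and 33.2% of 33906 features; 9 genes were called the same way in both fits. The median log2 fold change of the members was -0.39 as deposited, against 0.20 over all features, and -0.10 after subtraction, against -0.0039.

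Among the repressors, IAA16, whose dominant mutants respond weakly to auxin, fell from 76.4 and 67.9 RPKM in Col-0 to 38.1 and 42.3 in importin123. Both importin123 libraries lay below both Col-0 libraries. Its log2 fold change was -1.37 ± 0.16 as deposited and -0.65 ± 0.11 after subtraction (adjusted p = 0.0027, edgeR, n = 2 libraries per genotype). The edgeR changes also include a scaling factor for each library (TMM), which RPKM does not. As deposited it was 0.807 and 0.788 for Col-0, 1.12 and 1.06 for lhp1-3, and 1.18 and 1.13 for importin123. Deposited changes against Col-0 therefore lie lower than the RPKM values alone show. After subtraction the factors ran from 0.933 to 1.06. IAA8 fell too, by less: -0.39 ± 0.12 after subtraction (adjusted p = 0.029, edgeR), with no overlap of libraries. The call for IAA8 was lost when any of 4 libraries was left out, with values of -0.45 and -0.33 without Col-0 replicate 1 or 2 and -0.39 and -0.37 without importin123 replicate 1 or 2. IAA9 did not pass after subtraction (0.18 ± 0.11, adjusted p = 0.236, edgeR) although its deposited value was a called fall (-0.57 ± 0.16). Its RPKM was 57.7 and 59.9 in Col-0 and 55.7 and 58.7 for importin123.

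IAA7 (AT3G23050), the gene of the axr2 dominant mutants with defective gravitropism, stood at 33.6 and 29.4 RPKM in Col-0, 18.7 and 20.1 for lhp1-3, and 17.9 and 21.2 for importin123. Every mutant library lay below both Col-0 libraries, and the 2 mutants overlapped each other. The change in importin123 was -0.55 ± 0.11 after subtraction (adjusted p = 0.00584, edgeR). IAA12 (AT1G04550), known as BODENLOS and as the partner of ARF5 in embryonic root formation, stood at 14.3 and 14 RPKM in Col-0, 9.92 and 10.9 for lhp1-3, and 9.76 and 9.22 for importin123. It fell by a similar amount in importin123 (-0.55 ± 0.12, adjusted p = 0.00949, edgeR), a call lost without importin123 replicate 2 (-0.45). IAA18 (AT1G51950), known from dominant mutants with altered embryo apical patterning and fewer lateral roots, stood at 16.7 and 16.7 RPKM in Col-0, 14.6 and 15 for lhp1-3, and 10.5 and 12.5 for importin123. Both importin123 libraries were below all others, also after subtraction, where lhp1-3 overlapped Col-0, and the change was -0.48 ± 0.10 after subtraction (adjusted p = 0.00756, edgeR).

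IAA1 (AT4G14560), a fast auxin-induced repressor gene, was the one member that rose. Its deposited values were 3.05 and 1.91 RPKM in Col-0, 4.32 and 4.94 for lhp1-3, and 6.54 and 5.89 for importin123. The Col-0 libraries were the 2 lowest and the importin123 libraries the 2 highest. After floor subtraction and scaling, its level (scaled reads per kb above the floor) was 3.21 and 1.91 in Col-0, 3.76 and 4.95 for lhp1-3, and 6.89 and 5.82 for importin123, a change of 1.31 ± 0.29 in importin123 (adjusted p = 0.00908, edgeR). The call was lost without importin123 replicate 1 (1.2, adjusted p = 0.0566). In lhp1-3 the same gene stood between the other genotypes and did not pass (0.77 ± 0.29, adjusted p = 0.111, edgeR).

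The strongest falls of any member after subtraction were in 2 GH3 genes. GH3.6 (AT5G54510), or DFL1, whose overexpression shortens hypocotyls, stood at 26.1 and 27.9 RPKM in Col-0, 17.3 and 18.6 for lhp1-3, and 13.6 and 14.2 for importin123. The genotypes were fully separated, with Col-0 highest, lhp1-3 next and importin123 lowest. In importin123 the change was -0.87 ± 0.10 after subtraction (adjusted p = 0.000606, edgeR), and this call stood with any one library left out. GH3.5 (AT4G27260), or WES1, which acts on auxin and salicylic acid, stood at 13 and 18.3 RPKM in Col-0, 13 and 12.8 for lhp1-3, and 8.49 and 8.97 for importin123. Its Col-0 libraries differed from each other more than those of either mutant, and importin123 lay below all others. The change was -0.86 ± 0.16 (adjusted p = 0.00419, edgeR), and it was -0.57 without Col-0 replicate 2 and -1.09 without Col-0 replicate 1, both called. GH3.2 (AT4G37390), another auxin-conjugating enzyme gene, stood at 3.77 and 3.81 RPKM in Col-0, 3.74 and 3.71 for lhp1-3, and 3.99 and 2.99 for importin123, where Col-0 and importin123 overlapped. Above the floor both importin123 libraries were the lower ones, and the change in importin123 was -0.61 ± 0.21 after subtraction (adjusted p = 0.0454, edgeR). That call was lost when any library other than importin123 replicate 1 was left out, and without importin123 replicate 2 the value was -0.33.

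**Figure D2:**
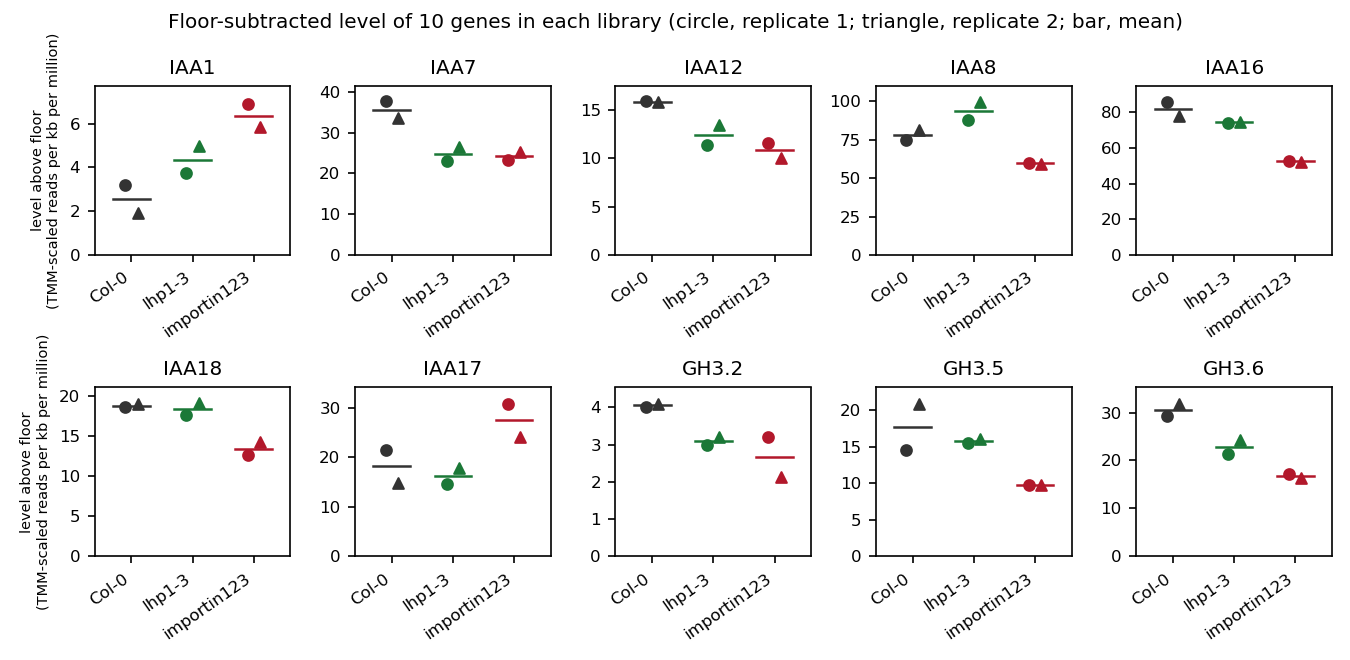
Floor-subtracted level (TMM-scaled reads per kb above the floor, linear axis from 0) of 10 genes in each library; circles are replicate 1, triangles replicate 2 and bars the mean of the 2. GH3.6 steps down from Col-0 to lhp1-3 to importin123, IAA8, IAA16 and IAA18 are low in importin123, and IAA1 is highest in importin123.

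The comparison of lhp1-3 with Col-0 gave changes in repressor and GH3 genes, all of them falls. After floor subtraction 3 of 26 were lower (11.5%) and 0 higher, against 7.17% lower and 9.08% higher over all genes, a share near the background. The 3 were IAA7, IAA13 and GH3.6. At an unadjusted p under 0.05 the same test gave 5 lower and 2 higher, and DESeq2 called 1 higher (subtracted counts), against 12.5% over all genes. On deposited counts 10 of 35 were called higher and 21 lower, against 41.8% and 33.5% over all features; the 3 genes above were called the same way in both fits. The members' median was -0.35 as deposited, against 0.17 over all features, and -0.02 after subtraction, against -0.03.

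IAA7 fell to 0.694 of its Col-0 level in lhp1-3 (-0.53 ± 0.11, adjusted p = 0.0175, edgeR). The call was lost without Col-0 replicate 1 (-0.44) or lhp1-3 replicate 1 (-0.43). GH3.6 fell to 0.745 (-0.42 ± 0.10, adjusted p = 0.0287, edgeR), lost without Col-0 replicate 2 (-0.36) or lhp1-3 replicate 1 (-0.33). IAA13 (AT2G33310), the close relative of IAA12, stood at 13.5 and 12.9 RPKM in Col-0, 10.1 and 8.94 for lhp1-3, and 10.7 and 9.65 for importin123. All mutant libraries lay below Col-0 for this gene, and its change was -0.42 ± 0.12 in lhp1-3 (adjusted p = 0.0468, edgeR) and -0.33 ± 0.12 in importin123, just outside the call (adjusted p = 0.055, edgeR). The lhp1-3 call was lost without any of its own or the Col-0 libraries, with values of -0.36 to -0.48. IAA13 overlaps a gene on the opposite strand over 1176 bp, and no source used here says whether the counts used strand. The same limit holds for IAA3 and IAA10, with opposite-strand overlaps of 640 and 619 bp.

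Both mutants were compared with the same Col-0 libraries, so their values side by side are not independent. IAA7 fell by nearly the same amount in each, and importin123 against lhp1-3 gave -0.02 ± 0.11 (adjusted p = 0.903, edgeR). For GH3.6 the direct comparison was a further fall. Between the mutants, whose floors were alike, 5 of 35 were lower and 1 higher in importin123 as deposited, and 5 and 1 of 26 after subtraction, the same 6 genes. Over all features 6.05% were lower and 2.84% higher as deposited, and 13.4% and 9.14% after subtraction.

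The 6 genes were IAA8, IAA16, IAA18, GH3.5 and GH3.6, all lower in importin123 than in lhp1-3, and IAA17, which was higher. IAA8 went from 88.0 and 99.8 (scaled reads per kb above the floor) in lhp1-3 to 60.1 and 59.2 in importin123, a change of -0.69 ± 0.16 as deposited and -0.65 ± 0.12 after subtraction (adjusted p = 0.00629, edgeR). This was the only one of the 6 still called with each library left out in turn. IAA16 changed by -0.50 ± 0.11 and IAA18 by -0.45 ± 0.10 after subtraction (adjusted p = 0.0142 and 0.0176, edgeR). In lhp1-3 against Col-0 these 3 repressor genes did not pass after subtraction: 0.26 ± 0.12, -0.14 ± 0.11 and -0.03 ± 0.10, in that order. GH3.5 changed by -0.69 ± 0.16 and GH3.6 by -0.44 ± 0.10 (adjusted p = 0.0182 and 0.0187, edgeR).

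On deposited counts none was lower without lhp1-3 replicate 1, lhp1-3 replicate 2 or importin123 replicate 1. After subtraction, with 1 library of either mutant left out, 5 of these 6 calls were lost for at least 3 of the 4 mutant libraries. Over the 6 fits without 1 library the value for IAA16 stayed within -0.50 and -0.52, and for GH3.5 within -0.67 and -0.72. IAA18 ranged from -0.37 to -0.56 and GH3.6 from -0.35 to -0.53. IAA17 (AT1G04250), or AXR3, whose dominant mutants have agravitropic roots, stood at 19.2 and 13.2 RPKM in Col-0, 12.4 and 14 for lhp1-3, and 23.1 and 20.3 for importin123. Its Col-0 libraries differed by more than those of either mutant and overlapped lhp1-3. The change in importin123 against lhp1-3 was 0.63 ± 0.16 as deposited and 0.76 ± 0.20 after subtraction (adjusted p = 0.0363, edgeR), and it was 0.57 without importin123 replicate 1 and 0.91 without importin123 replicate 2, and 0.63 and 0.90 without lhp1-3 replicate 1 or 2, none of them called. Against Col-0 IAA17 lay at 0.60 ± 0.20 in importin123, just outside the call (adjusted p = 0.0504, edgeR), while its deposited value there was -0.11 ± 0.16.

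**Figure D3:**
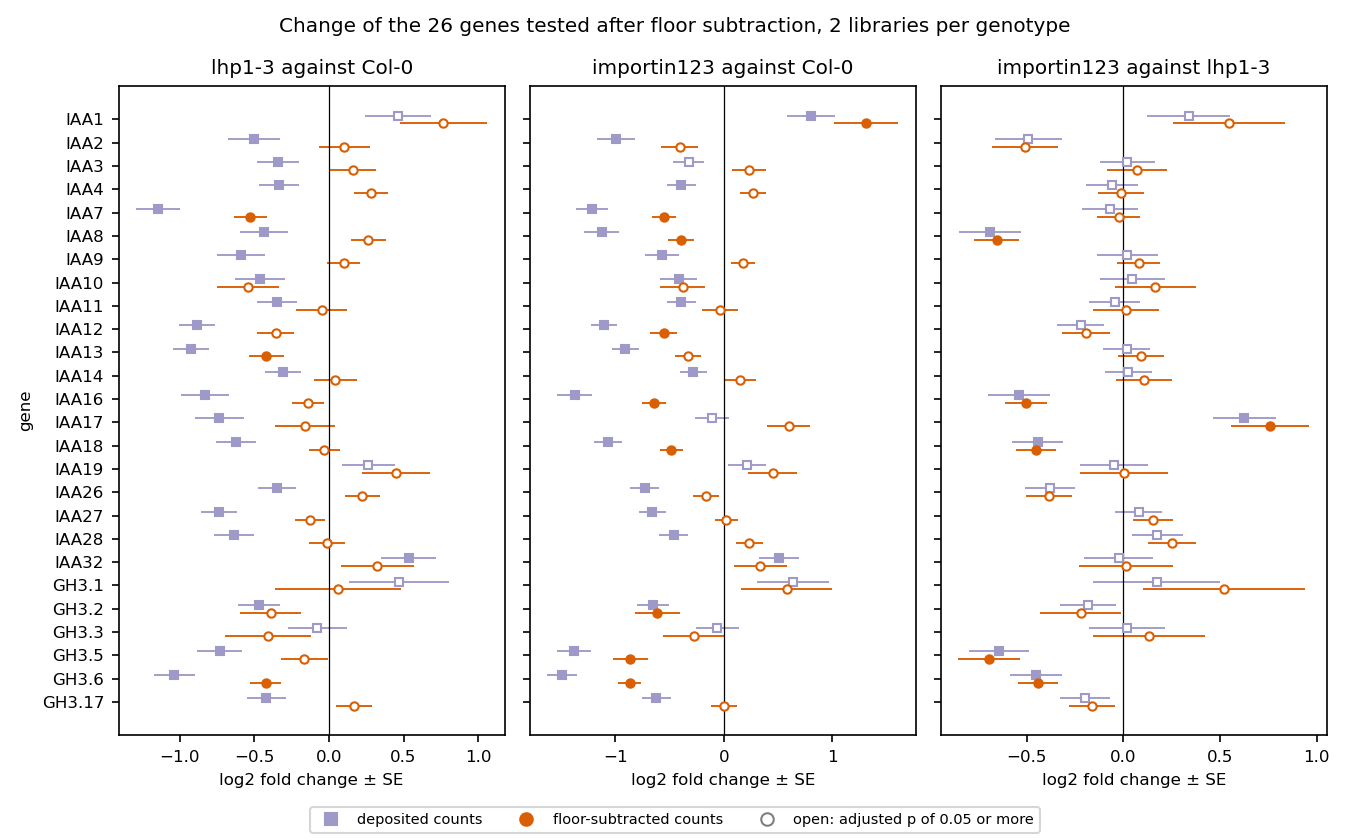
Log2 fold change ± SE of the 26 genes tested after floor subtraction, in 3 comparisons, with 2 libraries per genotype; squares are deposited counts, circles floor-subtracted counts, and open symbols have an adjusted p of 0.05 or more. The 2 fits stand apart in both comparisons with Col-0 and close together between the mutants.

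The other canonical repressor genes were not called in any comparison after subtraction. IAA2 (AT3G23030) stood at 19.2 and 15.2 RPKM in Col-0, 17.9 and 15.2 for lhp1-3, and 10.3 and 14.5 for importin123, with importin123 replicate 1 the lowest. It reached -0.41 ± 0.17 in importin123 (adjusted p = 0.0918, edgeR) and 0.10 ± 0.17 in lhp1-3, where the deposited value had the opposite sign (-0.50 ± 0.17). IAA3, or SHY2, which restrains root meristem growth, stood at 8.86 and 7.91 RPKM in Col-0, 8.55 and 9.46 for lhp1-3, and 8.48 and 10.8 for importin123, and IAA4 at 17.5 and 14.5 RPKM in Col-0, 17.3 and 17.3 for lhp1-3, and 16.1 and 19.1 for importin123. For both genes the RPKM values of the 3 genotypes overlapped. The test on deposited counts called IAA4 lower in lhp1-3 (-0.33 ± 0.13) and importin123 (-0.39 ± 0.13). It called IAA3 lower in lhp1-3 (-0.34 ± 0.14) but not in importin123 (-0.32 ± 0.14). After subtraction all mutant libraries of IAA4 lay above Col-0 (0.28 ± 0.12 in lhp1-3 and 0.27 ± 0.12 in importin123), which did not pass (adjusted p = 0.137 and 0.0994, edgeR). IAA10, at 3.5 and 2.94 RPKM in Col-0, 3.14 and 3.21 for lhp1-3, and 3.70 and 3.26 for importin123, and IAA11, at 4.64 and 4.90 RPKM in Col-0, 5.05 and 5.17 for lhp1-3, and 5.76 and 4.77 for importin123, lay close together in RPKM in the 3 genotypes. The test on deposited counts called both genes lower in each mutant. IAA10 gave -0.46 ± 0.17 in lhp1-3 and -0.42 ± 0.17 in importin123, and IAA11 gave -0.35 ± 0.13 and -0.39 ± 0.13. After subtraction all mutant libraries of IAA10 lay below Col-0, at -0.54 ± 0.21 and -0.38 ± 0.21 after subtraction in lhp1-3 and importin123 (adjusted p = 0.114 and 0.181, edgeR), and did not pass.

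IAA14 (AT4G14550), or SOLITARY-ROOT, which blocks lateral root initiation when stabilised, stood at 5.46 and 4.77 RPKM in Col-0, 5.81 and 5.46 for lhp1-3, and 6.51 and 5.66 for importin123. IAA28, another repressor of lateral root formation, stood at 24.9 and 19.6 RPKM in Col-0, 20.6 and 18.4 for lhp1-3, and 23.1 and 23.6 for importin123. Neither passed after subtraction: IAA14 lay at 0.04 ± 0.14 in lhp1-3 and 0.15 ± 0.14 in importin123, and IAA28 at -0.01 ± 0.12 and 0.24 ± 0.12, none called. As deposited both were called falls in each mutant. IAA14 gave -0.31 ± 0.12 in lhp1-3 and -0.28 ± 0.12 in importin123, and IAA28 gave -0.64 ± 0.13 and -0.46 ± 0.13. IAA19, or MSG2, a repressor in hypocotyl tropisms, stood at 2.77 and 2.07 RPKM in Col-0, 4.0 and 3.9 for lhp1-3, and 4.39 and 3.71 for importin123. All mutant libraries were above Col-0 for it, but the changes of 0.45 ± 0.23 and 0.45 ± 0.23 did not pass (adjusted p = 0.211 and 0.148, edgeR). The phytochrome-associated IAA26 and IAA27, or PAP1 and PAP2, stood at 12 and 11.7 RPKM in Col-0, 14.3 and 11.2 for lhp1-3, and 9.83 and 10.8 for importin123, and at 21.0 and 20.8 RPKM in Col-0, 17.2 and 17.1 for lhp1-3, and 19.6 and 18.7 for importin123. After subtraction IAA26 came near the call between the mutants (-0.38 ± 0.12, adjusted p = 0.0519, edgeR), and IAA27 ranged from -0.13 ± 0.10 in lhp1-3 against Col-0 to 0.15 ± 0.10 between the mutants. As deposited both were called falls against Col-0. IAA26 gave -0.35 ± 0.13 in lhp1-3 and -0.73 ± 0.13 in importin123, and IAA27 gave -0.74 ± 0.12 and -0.66 ± 0.12.

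Of the GH3 genes, GH3.17 (AT1G28130), an enzyme gene known for glutamate conjugation of auxin, stood at 15.2 and 12.5 RPKM in Col-0, 13.7 and 14.5 for lhp1-3, and 13 and 13 for importin123. It passed in neither mutant after subtraction (0.17 ± 0.12 in lhp1-3 and 0.00 ± 0.12 in importin123, adjusted p = 0.362 and 0.981, edgeR). As deposited it was a called fall in both (-0.42 ± 0.13 in lhp1-3 and -0.62 ± 0.13 in importin123). GH3.1 stood at 0.784 and 1.71 RPKM in Col-0, 2.51 and 2.23 for lhp1-3, and 3.18 and 2.49 for importin123, and GH3.3 at 1.56 and 2.44 RPKM in Col-0, 2.83 and 2.36 for lhp1-3, and 3.02 and 2.55 for importin123. For both, Col-0 replicate 2 was higher than replicate 1, and the mutant means were only 1.60 to 1.82 times the floor. Neither passed in any comparison in either fit. Whether GH3.5 and GH3.6 moved after subtraction while GH3.17 did not was not tested as a difference between genes.

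In 3 places Aux/IAA genes are neighbours, transcribed away from each other with 1 gene between them. IAA2 and IAA7 lie 12510 bp apart on chromosome 3, IAA3 and IAA17 lie 6388 bp apart on chromosome 1, and IAA14 and IAA1 lie 10732 bp apart on chromosome 4 (TAIR10.1). In each pair the member on the plus strand, namely IAA7 at chr3:8194606-8197161, IAA17 at chr1:1136078-1138663 or IAA1 at chr4:8360996-8362033, was called in at least 1 comparison after subtraction, and its partner on the minus strand was called in none. The difference within pairs was not tested. The directions were not shared either: IAA7 was lower, and IAA1 higher, in importin123 than in Col-0. Whether the degron core separates called from uncalled members could not be told, since every Aux/IAA gene tested other than IAA32 had it.

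The remaining steps of the pathway showed which other genes moved beside the members. Of 10 receptor and SCF genes, 5 were lower and 2 higher in importin123 after subtraction, where as deposited 8 were lower and none higher, against 21.7% lower and 19.3% higher over all genes after subtraction and 33.2% and 42.3% as deposited. AFB2 (-0.46 ± 0.09), AFB3 (-0.43 ± 0.10) and AFB5 (-0.43 ± 0.10) had the smallest adjusted p of those that fell (0.00557, 0.0109 and 0.0107, edgeR), AFB1 (0.60 ± 0.13) and the cullin gene CUL1 (0.33 ± 0.10) rose, both with the opposite sign as deposited (-0.07 ± 0.13 and -0.38 ± 0.15), where CUL1 was a called fall. Of these 5 genes only AFB2 was still called with each library left out: AFB1 was lost without importin123 replicate 1, AFB3 without that library or Col-0 replicate 1, AFB5 without Col-0 replicate 2, and CUL1 without any Col-0 or importin123 library. In lhp1-3 the list had 1 gene lower, the RING-finger gene RBX1 (-0.41 ± 0.09), which was higher in importin123 than in lhp1-3 (0.32 ± 0.09); these calls were lost in 3 and 6 of the 6 fits without 1 library.

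Of 15 ARF genes, 3 rose and 0 fell in lhp1-3 after subtraction (0 lower at an unadjusted p under 0.05 and 0 with DESeq2), and 2 rose and 4 fell in importin123. Over all genes 9.08% were higher and 7.17% lower in lhp1-3, and 19.3% and 21.7% in importin123. As deposited, 1 ARF gene rose and 7 fell in lhp1-3 (41.8% and 33.5% over all features), and 1 rose and 13 fell in importin123 (42.3% and 33.2%). ARF19, an activator known for lateral root formation together with ARF7, had the largest change: it stood at 1.28 and 1.12 RPKM in Col-0, 4.22 and 3.2 for lhp1-3, and 3.63 and 3.38 for importin123, and rose by 1.46 ± 0.20 in lhp1-3 and 1.26 ± 0.20 in importin123 (adjusted p = 0.00347 and 0.00211, edgeR), with both calls standing without any one library. ARF5, or MONOPTEROS, rose in both (0.57 ± 0.13 and 0.59 ± 0.13), and ARF6 in lhp1-3 (0.45 ± 0.10, but -0.15 ± 0.14 as deposited). The lhp1-3 calls of both were lost without Col-0 replicate 1 or lhp1-3 replicate 1, that of ARF6 also without Col-0 replicate 2, and that of ARF5 in importin123 without importin123 replicate 1. ARF3 (-0.53 ± 0.10), ARF8 (-0.50 ± 0.10) and ARF17 (-0.61 ± 0.15) fell in importin123, of which ARF3 alone was called in every fit without 1 library; ARF8 was lost without importin123 replicate 1, and ARF17 without Col-0 replicate 2 or importin123 replicate 2. Between the mutants 4 ARF genes were lower and 0 higher in importin123, against 13.4% and 9.14% over all genes. DESeq2 gave 5 lower, against 16.5%. ARF8 was the furthest apart (-0.82 ± 0.10, adjusted p = 0.00137, edgeR), followed by ARF3 (-0.43 ± 0.10) and ARF4 (-0.41 ± 0.10). The calls of ARF3 and ARF4 were lost without importin123 replicate 1 or lhp1-3 replicate 2. That of ARF4 was also lost without importin123 replicate 2 or lhp1-3 replicate 1.

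Among 5 TOPLESS corepressor genes, TPL itself fell in importin123. It stood at 36.7 and 36.8 RPKM in Col-0, 33.5 and 31.0 for lhp1-3, and 21.1 and 22.3 for importin123, and changed by -0.61 ± 0.11 against Col-0 and -0.63 ± 0.11 against lhp1-3 (adjusted p = 0.0035 and 0.00541, edgeR), with both calls standing without any one library. The other 4 corepressor genes passed in none of the 3 comparisons with edgeR, and DESeq2 called 1 of the 5 lower in each comparison of importin123. Of 5 other GH3 genes, 2 could be tested and neither passed with edgeR, while 1 was lower in importin123 than in Col-0 with DESeq2 and at an unadjusted p under 0.05 with edgeR. Of 18 SAUR, LBD and related response genes, 13 were too near the floor to be tested. Of the other 5, HAT2 rose in lhp1-3 (0.93 ± 0.12, called without any one library) and less in importin123 (0.50 ± 0.12, but -0.09 ± 0.13 as deposited), with a difference of -0.43 ± 0.12 between the mutants, and these importin123 calls were lost without importin123 replicate 1 or 2, that against Col-0 also without Col-0 replicate 2, and that against lhp1-3 also without either lhp1-3 library. SAUR76 (1.59 ± 0.35) and SAUR32 (1.02 ± 0.31) rose in importin123, and SAUR76 was also higher there than in lhp1-3 (1.12 ± 0.34). SAUR32 moved to 1.57 without Col-0 replicate 1 and 0.63 without Col-0 replicate 2, both called, and was lost without either importin123 library or either lhp1-3 library, and the difference between the mutants for SAUR76 without any library other than Col-0 replicate 1.

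**Figure D4:**
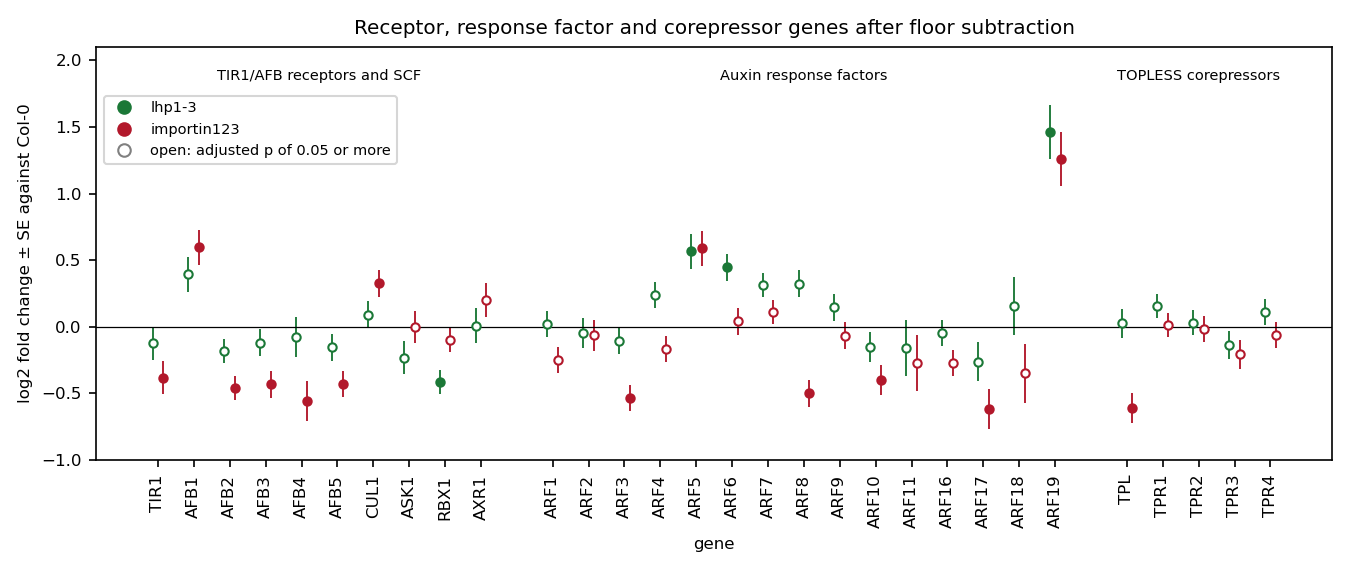
Log2 fold change ± SE against Col-0 after floor subtraction for receptor and SCF genes, ARF genes and TOPLESS corepressor genes in lhp1-3 and importin123 (2 libraries per genotype); open symbols have an adjusted p of 0.05 or more. ARF19 stands highest in both mutants, and TPL is low in importin123.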

How the data were processed

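Poly(A) RNA from whole seedlings was sequenced in 6 libraries, 2 for each genotype, grouped by title. The authors deposited counts per feature and RPKM values per kb of gene span for 34262 features; FastQC, HISAT2, SAMtools, bedtools, edgeR and the TAIR10 build are named per the submitters' processing notes, while no source used here states versions, settings or strand use. TAIR10.1 gene records were found for 32548 features, and 32508 of 32524 lengths derived from count and RPKM were 1 bp under the annotated span, so positions and sequences are those of TAIR10.1.

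Members, gene lists and the floor subtraction were chosen with earlier results of these data known. The rule for names covered all 35 members and, of each pathway list, up to 3 genes per comparison and direction with the smallest adjusted p. Deposited counts were tested with edgeR 4.0.16 (R 4.3.3; filterByExpr, TMM, robust quasi-likelihood test, 6 libraries, 1 coefficient per genotype, two-sided, Benjamini-Hochberg over 33906 features, common biological coefficient of variation 0.140). SE is the absolute log2 fold change over the square root of F. The floor, each library's median reads per kb over the 2306 silent genes (protein-coding, nuclear, 1000 bp or longer, lowest 10% by level), was multiplied by gene length and subtracted. Nuclear genes were kept with a mean of at least 10 counts left and at least as many reads above the floor as in it, without 110 genes matching an organelle genome (BLAST 2.17.0, at least 100 bp at 95% identity), which left 19699. Proteins were translated from the genome to find motifs; the degron was searched as its 4-residue core in place of the 5 residues planned. The fits were run on simulated data, either without a floor or with the same floor that the subtraction removes. Those runs cannot show whether such a floor describes the real libraries. Replicates correlated at 0.981, 0.992 and 0.989 (Pearson, log2 CPM) and differed by more than counting noise. Alternatives were RLE, DESeq2 1.42.0, limma 3.58.1 on log2(RPKM + 1) and log2(RPKM + 0.1) for features averaging 0.5 RPKM or more, other filters, fewer libraries, the replicate number as a block, and a floor changed by 25%.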

Additional observations from a re-analysis of the deposited data

How the results depend on the processing

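On deposited counts, floor subtraction took the members higher and lower in lhp1-3 from 10 and 21 to 0 and 3, and in importin123 from 11 and 19 to 1 and 8. Limma-trend on log2(RPKM + 1) or log2(RPKM + 0.1), which uses no TMM scaling, gave 13 higher and 6 lower in lhp1-3 and 8 lower in importin123. Between the mutants it gave 0 higher and 1 lower, where 1 and 5 were called. Over all features log2(RPKM + 1) gave 53.6% higher and 12.4% lower in lhp1-3. The shares were 58.0% and 13.9% in importin123, and 3.34% and 3.57% between the mutants. RLE size factors and nuclear features only each gave 2 lower between the mutants, against 5.38% and 5.21% over all features. RLE moved the median log2 fold change of all features from 0.17 to -0.01 in lhp1-3 and from 0.20 to 0.03 in importin123, so deposited values are relative to that shift. Without 1 library, lhp1-3 gave 9 to 12 higher and 10 to 20 lower, importin123 11 to 11 and 14 to 19, and the mutants 0 to 1 and 0 to 6. The 10 came without lhp1-3 replicate 1, and between the mutants the 0 lower came without lhp1-3 replicate 1 or 2 or importin123 replicate 1.

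On subtracted counts, a floor 25% lower gave 2 higher in lhp1-3 and 3 in importin123, against 16.3% and 23.8% over all genes. A floor 25% higher gave 1 lower in lhp1-3 and 3 higher in importin123, against 4.74% and 19.3%. DESeq2, added after seeing the data, gave 1 higher in lhp1-3 and 2 in importin123, against 12.5% and 22.2%. Without 1 library, lhp1-3 gave 0 to 1 higher and 0 to 3 lower, importin123 0 to 3 and 6 to 8, and the mutants 0 to 1 and 1 to 6. Without lhp1-3 replicate 1 none was lower in lhp1-3, and without Col-0 replicate 1 or 2 there was 1; without importin123 replicate 1 none was higher in importin123, and without Col-0 replicate 1 there were 3. Between the mutants, 2, 2 and 1 were lower without lhp1-3 replicate 1, lhp1-3 replicate 2 and importin123 replicate 1, and in either fit none was higher without any one mutant library. Such fits assume that a lone library varies like the other genotypes. The replicate block gave 10 and 21, 11 and 20, and 1 and 5 on deposited counts, and 0 and 3, 1 and 8, and 1 and 5 on subtracted counts. Replicate numbers did not pair the libraries (correlations of same-number deviations -0.011, -0.098 and 0.069).

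Values of members called on deposited counts that changed sign were all uncalled after the change, and the cause was not tested. In lhp1-3 the values on log2(RPKM + 1), log2(RPKM + 0.1) and floor-subtracted counts were 0.092, 0.10 and 0.16 for IAA3, 0.11, 0.12 and 0.28 for IAA4, 0.012, 0.012 and 0.26 for IAA8, 0.12, 0.14 and 0.042 for IAA14, 0.086, 0.092 and 0.22 for IAA26, and 0.028, 0.030 and 0.17 for GH3.17. IAA11 gave 0.083 and 0.098 on the RPKM scales, and IAA2 and IAA9 gave 0.10 and 0.098 on subtracted counts. In importin123 the same 3 settings gave 0.13, 0.14 and 0.27 for IAA4, 0.21, 0.25 and 0.15 for IAA14, and 0.074, 0.077 and 0.24 for IAA28. IAA10 gave 0.089 and 0.11 and IAA11 gave 0.11 and 0.13 on the RPKM scales, and IAA9, IAA27 and GH3.17 gave 0.18, 0.024 and 0.0039 on subtracted counts. The 9 genes near the floor could not be tested after subtraction.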
